A study of Homo sapiens with 6 samples.

Results

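The enzymes that copy DNA at the replication fork and the complexes that mark and start its origins were followed in bladder cancer cells after depletion of *LEADR*, a spliced long non-coding transcript of the *MIR205HG* gene. The 38 genes were taken by name: the subunits of DNA polymerases alpha, delta and epsilon, the sliding clamp and its loader RFC, the enzymes that finish Okazaki fragments, the origin recognition complex (ORC), GINS and CDC45, the single-strand binding complex RPA, and the kinase CDC7-DBF4 with geminin. All 38 had enough counts to be tested, among 14178 genes tested of 57905 in the table. RT4, an established line from a papillary bladder tumour whose genotype is labelled WT, was transfected for 48 h with 100 pmol of 1 *LEADR* siRNA (LEADR-KD, 3 libraries) or with 100 pmol of a universal negative control siRNA (Scramble, 3 libraries), and poly(A) RNA was sequenced. A single siRNA stands for the depletion, and while the paper's methods speak of biological replicates, neither they nor the labels say whether the libraries of a group came from separate cultures, so p-values measure the spread between these libraries, which may be technical.

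Replication starts where ORC, a complex of 6 different subunits, binds DNA and recruits the loading factors that place the MCM helicase around the double strand. CDC7-DBF4 kinase and the cyclin-dependent kinases then let CDC45 and GINS join the helicase, polymerase alpha-primase lays down primers, RFC opens the PCNA ring and sets it on each primer, and polymerases epsilon and delta extend the leading and the lagging strand. Many of these genes are transcribed in a wave as cells pass from G1 into S phase, a program in which E2F factors take part, so that in a population of cells their RNA depends on how many cells are in that window as well as on the level in each cell.

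The deposited counts summed to 17369580, 17841279 and 17375784 in LEADR-KD and to 17842088, 18960822 and 15706033 in Scramble. Levels are given as CPM, a gene's counts relative to a library total that was scaled by edgeR's TMM method. The 2 groups were set against each other with the two-sided quasi-likelihood test of edgeR, and Benjamini-Hochberg adjustment ran over all genes tested. A gene is said to be higher, or to have risen, where its adjusted p was under 0.05, and log2 fold changes are of LEADR-KD over Scramble. *MIR205HG*, the gene of the targeted transcript, had 7.08, 11.6 and 5.72 CPM in LEADR-KD, against 30.1, 17.3 and 20.7 CPM in Scramble, a log2 fold change of -1.47 (SE 0.26, adjusted p = 0.00180), and the counts per gene do not separate spliced *LEADR* from other RNA of the locus. The epithelial keratins *KRT7*, *KRT8*, *KRT18* and *KRT19* averaged 614 to 2178 CPM in LEADR-KD and 468 to 1973 CPM in Scramble, whereas *KRT20* was at most 0.444 CPM in the mean of either group. None of the 6 leukocyte markers had enough counts to be tested. Of 6 fibroblast markers, *COL1A1* and *COL3A1* were tested and neither passed (means of 1.45 and 19.8 CPM in LEADR-KD). Of 3 endothelial markers only *VWF* was tested, and it was lower (log2 fold change -1.16, adjusted p = 0.00553). Of 15 urothelial and luminal epithelial markers, including the keratins, 14 were tested. *CDH1* (1.11), *UPK1B* (0.76) and *KRT18* (0.39) were higher, *FOXA1* (-0.30) was lower and 10 did not pass. The share of counts on mitochondrial genes was 10.8%, 5.73% and 4.79% in LEADR-KD and 11.9%, 4.57% and 3.06% in Scramble, the libraries numbered 1 standing apart in both groups; with both of them left out 17 of the 38 genes were called higher, against 21 with all libraries.

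Of the 38 replication genes, 21 were higher in LEADR-KD, where 12.2% of all genes tested were higher, and none was lower, where 12.1% of all genes tested were lower (24.4% in either direction). At an unadjusted p under 0.05, 24 were higher and 1 was lower, and DESeq2 called 22 higher and 0 lower. Scaled by library totals only, in place of TMM, 13 were called higher. The median log2 fold change of the 38 was 0.36, against -0.012 over all genes tested, and the single values ran from -0.22 for *CDC7* to 0.86 for *RFC4*, so no gene changed by a log2 of 1. In 25 genes every LEADR-KD library was above every Scramble library, and in 1 gene every one was below, where each order was met by 19.9% of all genes tested (19.9% above and 19.9% below). Summed over the 38 genes, the libraries held 3114, 3075 and 3147 CPM in LEADR-KD, against 2445, 2532 and 2498 CPM in Scramble, and the groups did not overlap. Among the 3465 genes of a similar level, with a mean of 33.4 to 89.8 CPM, 16.5% were higher, and among the 18 replication genes in that range 11 were higher (61.1%). In these bulk libraries, more cells in S phase and more RNA per cell cannot be told apart. The paper's own pathway enrichment tied genes held down by *LEADR* to replication stress and homology-based DNA repair, beside interferon signalling. It raises replicative stress as a possible companion of *LEADR* depletion. It also calls the DNA damage response enrichment not strongly significant and asks for further work. In separate assays of RT4 cells after *LEADR* depletion, the paper saw no significant change in growth. Nor did it see a significant change in incorporation of EdU, its estimate of the share of cells in S phase. By its methods, cells were reseeded 48 h after knock-down and growth was followed from then, later than these libraries at 48 h. The time of the EdU label after knock-down is not stated there.

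**Figure D1:**
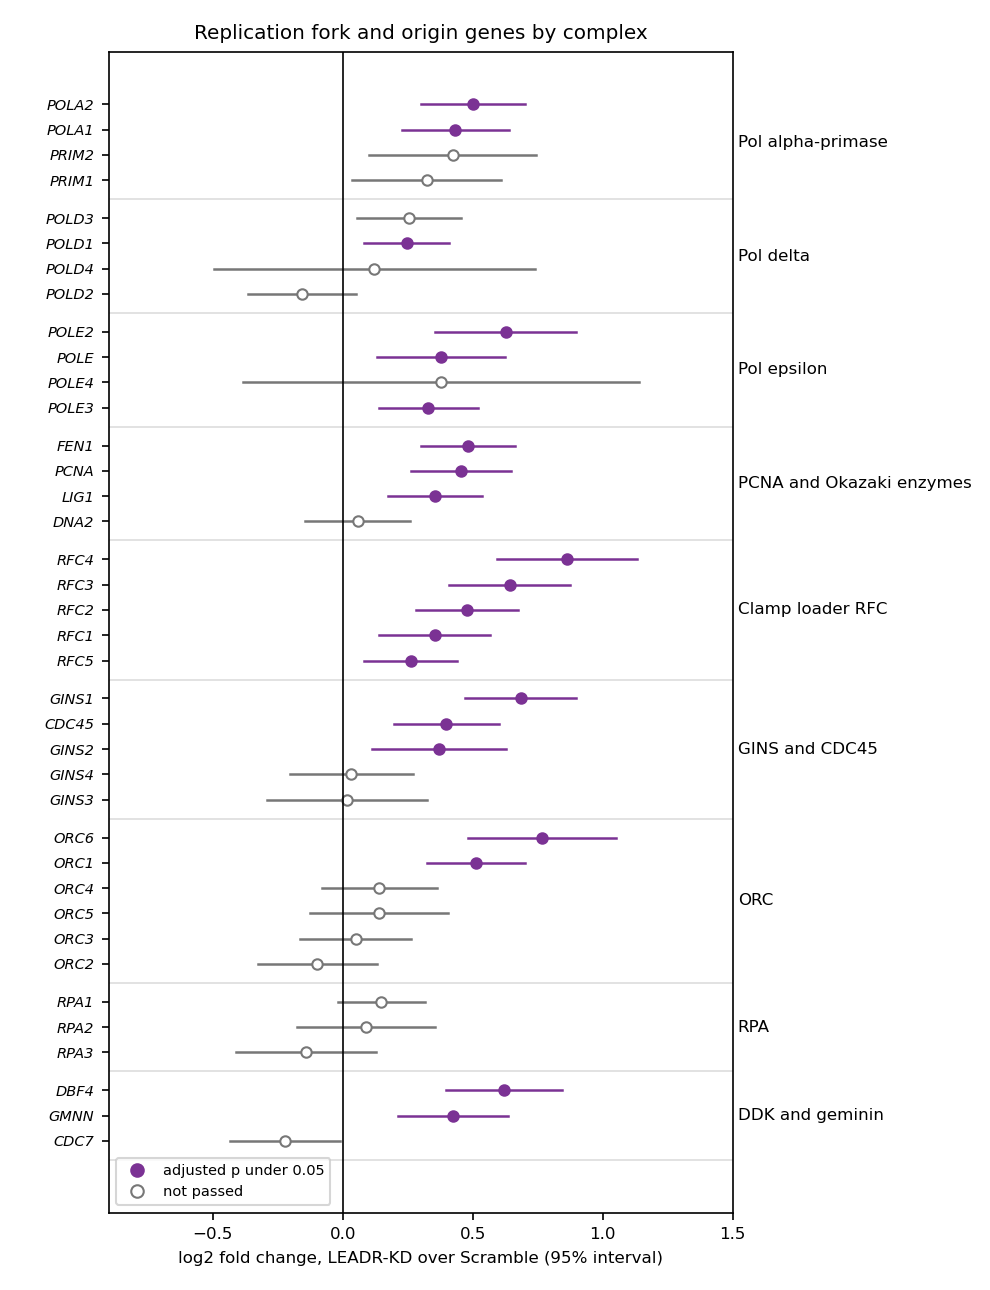
Log2 fold change of LEADR-KD over Scramble for the 38 genes, grouped by complex, with the unadjusted 95% interval of each (x axis, log2); filled purple points have an adjusted p under 0.05. All 5 clamp loader subunits are filled and all 3 RPA subunits are open, and *RFC4* lies farthest to the right at 0.86.

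The promoters of these genes are shown first, because the E2F site is the sequence feature best known for the family. RefSeq promoter windows (GRCh38.p14, from 250 bases before to 50 bases after the start site) matched 33 of the 38 genes by symbol. These genes had 44 windows, and a gene was counted where any of its windows held a match. The octamers TTTCCCGC, TTTCGCGC, TTTGCCGC and TTTGGCGC were searched on both strands; the first, the second and the fourth were found. At least 1 of them was in a window of 14 of the 33 genes (42.4%), against 6.75% of the 9586 genes tested that had a window and 3.99% of all 27305 genes with a window. The windows of 10 of the 21 higher genes held one (47.6%), as did those of 4 of the 12 matched genes that did not pass the test (33.3%). Of the sequences below, 30 bases on the strand of the gene, the first 5 lines belong to genes that were higher and the last 4 lines to genes that did not pass, *CDC7* with 2 sites, so that both kinds can be seen; capitals mark the octamer or its reverse complement.
*GINS1*, chr20:25407667-25407696 (+): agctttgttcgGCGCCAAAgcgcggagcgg
*POLE2*, chr14:49688201-49688230 (-): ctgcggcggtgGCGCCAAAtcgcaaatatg
*RFC3*, chr13:33818083-33818112 (+): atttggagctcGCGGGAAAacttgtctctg
*POLA2*, chr11:65261898-65261927 (+): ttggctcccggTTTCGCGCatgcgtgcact
*PCNA*, chr20:5126663-5126692 (-): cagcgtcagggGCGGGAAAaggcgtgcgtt
*CDC7*, chr1:91501033-91501062 (+): gtgcagttcctTTTCCCGCcccccttcgga
*CDC7*, chr1:91501067-91501096 (+): tccgacctgcgGCGGGAAAgtcgcgcgcct
*GINS3*, chr16:58392455-58392484 (+): cgtccccgggcGCGGGAAAcgagtttcaat
*ORC3*, chr6:87590112-87590141 (+): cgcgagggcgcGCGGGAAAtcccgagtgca

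In *GINS1* and *POLE2* the same 8 letters, the reverse complement of TTTGGCGC, began 5 bases after and 5 bases before the start site, the latter running across it. The octamer of *GINS3*, also beginning 5 bases before its start, and the pair in *CDC7*, beginning 68 and 34 bases before, belonged to genes without a call. A CCAAT box was in a window of 18 of the 33 genes (54.5%), against 43.7% of the genes tested, and the cell cycle element TTTGAA in 2 (6.06%), against 13.7%. A match is a run of letters and not a bound site, and the windows of *RFC4*, *ORC1*, *ORC6* and *DBF4*, which were also higher, held none of the octamers.

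The siRNA itself, as listed by the submitters, is printed for its seed, bases 2 to 8 from the 5′ end, in capitals.
siRNA: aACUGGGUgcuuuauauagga
The 7 bases complementary to that seed, ACCCAGT, occurred in the annotated 3′ UTRs (GENCODE on GRCh37) of 2 of the 38 genes (5.26%), *ORC2* and *POLA1*, against 14.2% of the 12091 genes tested that had a 3′ UTR. *POLA1* was higher in LEADR-KD and *ORC2* did not pass the test. The match of the seed of the complementary strand, ATATAGG, was in the same 2 genes (5.26%), against 9.33% of the genes tested. Which strand acts as the guide, and whether the siRNA pairs there, was not tested.

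DNA polymerase alpha-primase, which makes the short RNA-DNA primers of both strands, had 2 of its 4 subunits higher and a median log2 fold change of 0.43. The accessory subunit *POLA2* (chromosome 11, 65029233 to 65073060, hg19) had 68.2, 65.1 and 66.7 CPM in LEADR-KD, against 51.5, 44.7 and 45.1 CPM in Scramble, a log2 fold change of 0.50 (SE 0.091, adjusted p = 0.00222, 1.42-fold). The libraries of the 2 groups did not overlap, and those of LEADR-KD were the tighter (SD of 1.58 CPM in LEADR-KD and 3.79 CPM in Scramble, n = 3 each). The catalytic subunit *POLA1* rose by a log2 of 0.43 (SE 0.094, adjusted p = 0.00639). The primase genes did not pass. *PRIM1*, the catalytic primase, had 32.3, 31.7 and 33.4 CPM in LEADR-KD and 29.4, 27.5 and 21.01 CPM in Scramble, a log2 fold change of 0.32 (adjusted p = 0.0969). The regulatory primase subunit *PRIM2* had a log2 fold change of 0.42 (adjusted p = 0.0569). In both, every LEADR-KD library was above every Scramble library, and the Scramble libraries were the more scattered. *PRIM1* shares its strand and part of its locus with *NACA*, whose mean count was 1480% of that of *PRIM1*.

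DNA polymerase delta, the lagging-strand polymerase, had 1 of 4 subunits higher and a median of 0.18. The catalytic subunit *POLD1* rose by a log2 of 0.25 (SE 0.074, adjusted p = 0.0323), and leaving out any 1 library other than LEADR-KD 1 ended that call (adjusted p of 0.0689 to 0.110). *POLD3*, a subunit that helps bind PCNA, had 47.7, 53.2 and 50.7 CPM in LEADR-KD and 41.6, 44.04 and 41.4 CPM in Scramble, a log2 fold change of 0.26 that did not pass (adjusted p = 0.0619), although the groups did not overlap. *POLD2*, the second subunit of the core enzyme, had 176, 143 and 159 CPM in LEADR-KD and 194, 172 and 167 CPM in Scramble, a log2 fold change of -0.16 (95% interval -0.37 to 0.052, adjusted p = 0.268), with overlapping groups. The small subunit *POLD4* was near the limit of detection, with 49, 64 and 36 counts in LEADR-KD and 49, 45 and 46 counts in Scramble, and its interval, -0.50 to 0.74, leaves changes as large as those of most other genes here undetectable at this depth.

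DNA polymerase epsilon, the leading-strand polymerase, had 3 of 4 subunits higher and a median of 0.38. *POLE2*, its second subunit (chromosome 14, 50110273 to 50155140), had 23.5, 26.1 and 27.1 CPM in LEADR-KD, against 17.3, 14.7 and 17.7 CPM in Scramble, a log2 fold change of 0.63 (SE 0.12, adjusted p = 0.00376, 1.54-fold), and the lowest LEADR-KD library was above the highest Scramble library. The histone-fold subunit *POLE3* had 118, 104 and 113 CPM in LEADR-KD and 82.5, 93.9 and 90.6 CPM in Scramble, a log2 fold change of 0.33 (SE 0.087, adjusted p = 0.0177). The catalytic subunit *POLE* rose by 0.38 (adjusted p = 0.0304). The call of *POLE3* was lost without LEADR-KD 1, LEADR-KD 3 or Scramble 1 (adjusted p of 0.0503 to 0.0580), and that of *POLE* without LEADR-KD 2, Scramble 2 or Scramble 3 (adjusted p of 0.0697 to 0.128). *POLE4*, the partner of *POLE3*, had 43, 28 and 28 counts in LEADR-KD and 22, 29 and 28 counts in Scramble, with an interval of -0.39 to 1.14 on the log2 scale.

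The sliding clamp and the enzymes that process Okazaki fragments had 3 of 4 genes higher and a median of 0.41, and *PCNA* and *FEN1* had the highest level per length of the 38. *FEN1*, the flap endonuclease that trims the displaced primer (chromosome 11, 61560109 to 61564716), had 208, 230 and 230 CPM in LEADR-KD, against 150, 158 and 170 CPM in Scramble, a log2 fold change of 0.48 (SE 0.083, adjusted p = 0.00149). *PCNA*, the clamp that tethers the polymerases, rose by a log2 of 0.46 (adjusted p = 0.00323), and *LIG1*, the ligase that seals the nicks, by 0.36 (adjusted p = 0.00894). In all 3 genes every LEADR-KD library was above every Scramble library, and each call held when any 1 library was left out. *DNA2*, the nuclease-helicase that acts on long flaps, had 40.9, 39.2 and 39.2 CPM in LEADR-KD and 39.6, 38.1 and 36.9 CPM in Scramble, a log2 fold change of 0.057 with an interval of -0.15 to 0.26 (adjusted p = 0.703).

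The clamp loader RFC, a ring of 1 large and 4 small subunits that uses ATP to open PCNA, was the complex in which every subunit was higher (5 of 5, median 0.48). *RFC4* (chromosome 3, 186507669 to 186524847) had 44.5, 51.2 and 53.5 CPM in LEADR-KD, against 23.5, 31.0 and 27.4 CPM in Scramble, a log2 fold change of 0.86 (SE 0.12, adjusted p = 0.000463, 1.82-fold), the largest value of the 38. *RFC3* (chromosome 13, 34392186 to 34540695) had 68.3, 74.8 and 85.3 CPM in LEADR-KD, against 43.9, 50.5 and 52.1 CPM in Scramble, a log2 fold change of 0.64 (SE 0.11, adjusted p = 0.00125). In both genes the lowest LEADR-KD library was well above the highest Scramble library. *RFC2* rose by 0.48 (adjusted p = 0.00272) and the large subunit *RFC1* by 0.35 (adjusted p = 0.0211). *RFC5* had 77.9, 78.7 and 81.4 CPM in LEADR-KD and 64.3, 69.3 and 65.0 CPM in Scramble, a log2 fold change of 0.26 (SE 0.081, adjusted p = 0.0364). The groups of *RFC5* did not overlap, but its call was lost when any 1 library was left out (adjusted p of 0.0552 to 0.109), and that of *RFC1* without LEADR-KD 1, Scramble 1 or Scramble 3 (0.0542 to 0.0810). *RFC4* overlaps *EIF4A2* and *RFC5* overlaps *WSB2* on the opposite strand, and these neighbours had mean counts of 546% and 389% of theirs. How the counting treated strand is not stated in the sources used here. *EIF4A2* had a log2 fold change of -0.29 (adjusted p = 0.0766) and *WSB2* of 0.052 (adjusted p = 0.722).

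GINS, a complex of 4 small proteins, joins CDC45 and MCM to form the active helicase. *GINS1* (chromosome 20, 25388363 to 25433264) had 84.8, 90.9 and 94.9 CPM in LEADR-KD, against 49.4, 60.2 and 58.9 CPM in Scramble, a log2 fold change of 0.68 (SE 0.098, adjusted p = 0.000479, 1.61-fold). *CDC45* rose by 0.40 (adjusted p = 0.00895) and *GINS2* by 0.37 (adjusted p = 0.0408). Leaving out any 1 library other than Scramble 1 ended the call of *GINS2* (adjusted p of 0.0522 to 0.140); *GINS2* overlaps *GSE1* on the opposite strand, which had a log2 fold change of 0.36 (adjusted p = 0.0528). *GINS3* had 11.4, 12.3 and 13.8 CPM in LEADR-KD and 11.5, 12.2 and 13.4 CPM in Scramble, a log2 fold change of 0.017 with an interval of -0.29 to 0.33 (adjusted p = 0.950). The values of both groups lay over each other. *GINS4* gave 0.033 with an interval of -0.20 to 0.27 (adjusted p = 0.861). The intervals of these 2 subunits lay below that of *GINS1* (0.47 to 0.90) but overlapped that of *GINS2* (0.11 to 0.63), and the difference between subunits was not tested.

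The origin recognition complex had 2 of 6 subunits higher and a median of 0.14. *ORC1* is an ATPase subunit that comes and goes with the cell cycle in human cells (chromosome 1, 52838501 to 52870131). It had 55.1, 54.4 and 56.2 CPM in LEADR-KD, against 38.5, 38.5 and 39.0 CPM in Scramble. Its log2 fold change was 0.51 (SE 0.086, adjusted p = 0.00131, 1.43-fold). *ORC6*, the smallest and most loosely held subunit (chromosome 16, 46723555 to 46732306), had 30.6, 37.9 and 42.4 CPM in LEADR-KD, against 20.8, 21.8 and 22.6 CPM in Scramble, a log2 fold change of 0.77 (SE 0.13, adjusted p = 0.00140, 1.70-fold). The replicates of *ORC1* were tight in both groups, whereas those of *ORC6* were spread in LEADR-KD (36.9 ± 5.95 CPM, SD, n = 3) and tight in Scramble (21.7 ± 0.889 CPM, SD, n = 3). *ORC2*, a subunit of the stable core, had 40.3, 40.4 and 48.6 CPM in LEADR-KD and 43.6, 48.0 and 46.8 CPM in Scramble, a log2 fold change of -0.098 (interval -0.33 to 0.13, adjusted p = 0.545). The other core subunits *ORC3*, *ORC4* and *ORC5* gave 0.050, 0.14 and 0.14 (adjusted p of 0.756, 0.357 and 0.457), with overlapping groups in each.

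RPA coats single-stranded DNA at forks and at sites of repair, and none of its 3 genes passed (median 0.090; 0 at an unadjusted p under 0.05 and 0 by DESeq2). *RPA1*, the large subunit, had 210, 199 and 197 CPM in LEADR-KD and 174, 191 and 182 CPM in Scramble, a log2 fold change of 0.15 (interval -0.020 to 0.31, adjusted p = 0.194). The groups did not overlap in *RPA1*. *RPA3*, the small subunit, had 35.1, 27.4 and 28.8 CPM in LEADR-KD and 33.7, 36.2 and 30.7 CPM in Scramble, a log2 fold change of -0.14 (interval -0.41 to 0.13, adjusted p = 0.451). The subunit phosphorylated in replication stress, *RPA2*, gave 0.090 (interval -0.18 to 0.36, adjusted p = 0.640).

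The CDC7-DBF4 kinase, which phosphorylates MCM to fire origins, had 1 subunit with a call and 1 without; the difference between them was not tested. *DBF4*, the activating subunit (chromosome 7, 87505531 to 87538856), had 74.5, 60.0 and 69.7 CPM in LEADR-KD, against 44.5, 46.5 and 41.5 CPM in Scramble, a log2 fold change of 0.62 (SE 0.10, adjusted p = 0.00118, 1.54-fold). *CDC7*, the catalytic subunit (chromosome 1, 91966408 to 91991321), had 36.1, 34.3 and 34.3 CPM in LEADR-KD and 38.3, 42.8 and 41.1 CPM in Scramble. Its log2 fold change was -0.22 (unadjusted 95% interval -0.43 to -0.010, adjusted p = 0.121), and it was the 1 gene in which all LEADR-KD libraries were below all Scramble libraries. The opposite-strand neighbour of *DBF4*, *SLC25A40*, had a mean count of 42.3% of that of *DBF4* and a log2 fold change of 0.37 (adjusted p = 0.0476). *GMNN*, geminin, which binds CDT1 and blocks a second loading of origins, rose by 0.43 (SE 0.097, adjusted p = 0.00821), with no overlap between the groups.

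**Figure D2:**
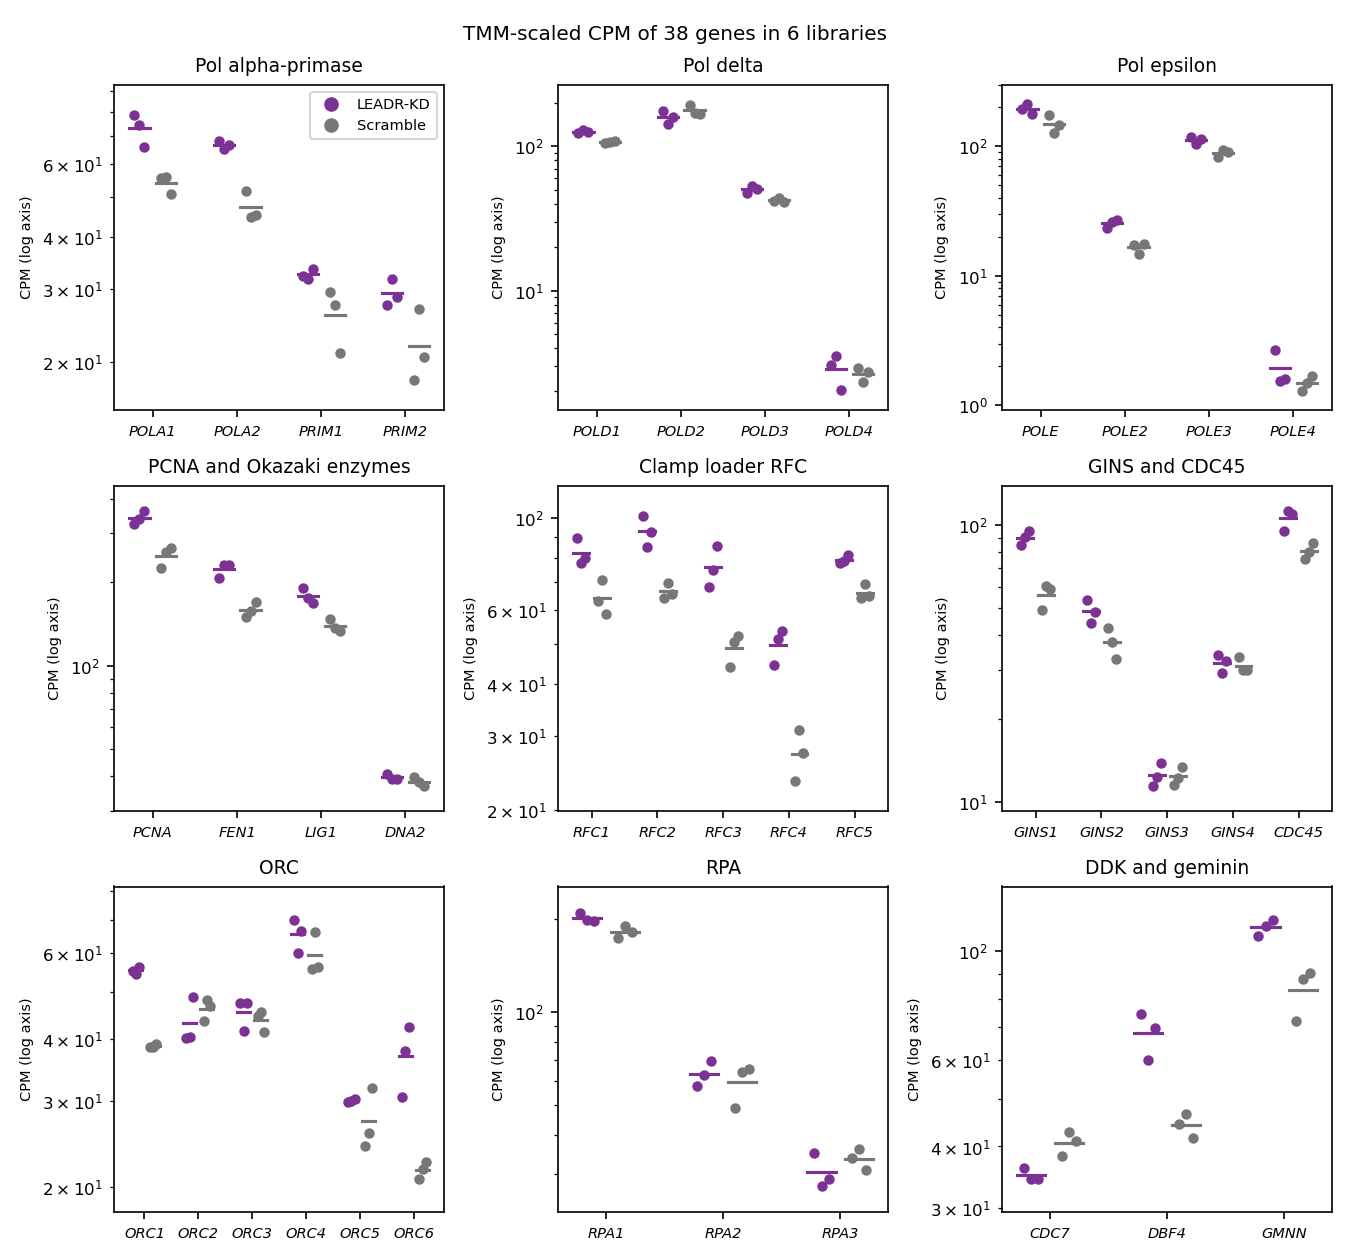
TMM-scaled CPM (log axis) of each of the 38 genes in the 3 LEADR-KD libraries (purple) and the 3 Scramble libraries (grey), 1 panel per complex, with a bar at each group's mean. *RFC4*, *GINS1*, *ORC6* and *DBF4* show purple points well clear of grey ones, *GINS3* and *DNA2* show points of both groups at the same height, and *CDC7* is the gene with purple points below grey ones.

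Taken by complex and library, as the median over a complex of the log2 CPM relative to the Scramble mean, the clamp loader stood at 0.49, 0.36 and 0.47 in LEADR-KD, against -0.049, 0.070 and -0.021 in Scramble. Polymerase alpha-primase stood at 0.44, 0.46 and 0.40 in LEADR-KD, against 0.087, 0.069 and -0.076 in Scramble. ORC stood at 0.19, 0.081 and 0.16 in LEADR-KD, against -0.070, 0.030 and 0.017 in Scramble. The groups were far apart in the first and second complex and close in ORC. In RPA the medians overlapped, with 0.070, 0.087 and 0.11 in LEADR-KD and -0.064, 0.11 and -0.0044 in Scramble.

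Levels of different genes were compared on the deposited FPKM, which is per length of the gene. *PCNA* was the highest, with 231 ± 12.2 FPKM in LEADR-KD and 167 ± 14.2 FPKM in Scramble (SD, n = 3 each), and *POLE4* and *POLD4* the lowest, at 0.900 ± 0.306 and 0.941 ± 0.247 FPKM in LEADR-KD and 0.684 ± 0.0859 and 0.860 ± 0.0967 FPKM in Scramble. The 6 ORC genes lay between 7.24 and 17.5 FPKM in LEADR-KD and between 4.99 and 12.1 FPKM in Scramble. In 2 pairs the order of the levels differed between the groups. The ratio of *ORC6* to *ORC2* was 1.03, 1.27 and 1.18 in LEADR-KD, against 0.645, 0.614 and 0.653 in Scramble. The ratio of *DBF4* to *CDC7* was 1.62, 1.37 and 1.59 in LEADR-KD, against 0.913, 0.855 and 0.794 in Scramble. In both ratios the numerator was the higher of the pair in every LEADR-KD library and the lower in every Scramble library. The ratio of *GINS1* to *GINS3* was 9.06, 9.03 and 8.36 in LEADR-KD, against 5.21, 6.03 and 5.36 in Scramble, and that of *RFC4* to *RFC5* averaged 0.679 ± 0.0521 in LEADR-KD and 0.446 ± 0.0451 in Scramble (SD, n = 3 each). The pairs are the genes with the largest and the smallest change of each complex, so the ratios are descriptions and were not tested.

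**Figure D3:**
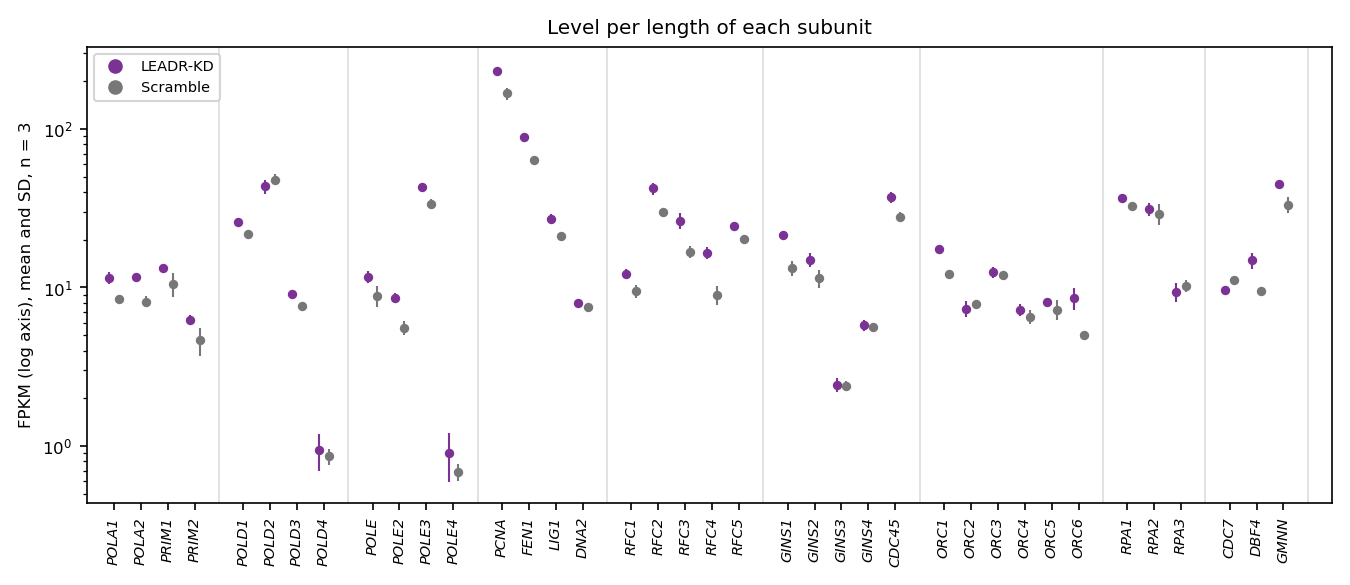
FPKM (log axis) of the 38 genes as mean and SD over 3 libraries, LEADR-KD in purple and Scramble in grey, with vertical lines between complexes. *PCNA* lies at the top (231 FPKM in LEADR-KD) and *POLD4* and *POLE4* lie below 1 FPKM, and *ORC6* is above *ORC2* in LEADR-KD and below it in Scramble.

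Among other genes of DNA replication, 50 in 7 lists, 20 were higher and 3 were lower, with a median log2 fold change of 0.25. All 9 genes of the MCM helicase and its loading were higher (median 0.35), led by *CDC6* (1.00, adjusted p = 6.96e-06) and *CDT1* (0.83, adjusted p = 8.96e-05), which bring MCM to ORC, and by *MCM10* (0.59, adjusted p = 0.00581), which acts in helicase activation. The largest adjusted p of the 9 was 0.0496, just under the threshold. Of the 6 origin firing factors 4 were higher (median 0.38), with *DONSON* at 1.05, *MTBP* at 0.66 and *TOPBP1* at 0.48. Of the 5 fork protection genes 3 were higher (median 0.37), with *WDHD1* at 0.85, *TIPIN* at 0.60 and *CLSPN* at 0.37. Among the alternative clamp loaders, *DSCC1* was higher at 0.78 and its partner *CHTF8* was lower at -0.50, and the remaining 3 of 5 did not pass.

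Beyond the fork core the counts differed between lists, beside 12.2% of all genes tested that were higher and 12.1% that were lower. Of the 12 repair and translesion polymerase genes, 3 were higher and 2 were lower, with a median log2 fold change of 0.00065. *POLN* stood at 1.90, at 1.14 ± 0.510 CPM in LEADR-KD and 0.300 ± 0.0577 CPM in Scramble (SD, n = 3 each), *MAD2L2* at 0.53 and *POLQ* at 0.40, whereas *POLL* stood at -0.66 and *POLI* at -0.44. None of the 7 genes of RNase H2, the topoisomerases and the histone chaperone CAF-1 passed in edgeR (3 at an unadjusted p under 0.05, 2 by DESeq2), nor did any of the 6 genes of mitochondrial DNA replication (2 at an unadjusted p under 0.05, 1 by DESeq2). Of 10 G1/S regulators 6 were higher (median 0.33), with *E2F2* at 1.09, *CCNE2* at 0.75 and *CDK2* at 0.58. Of 12 G2/M genes *CDK1* was higher at 0.32, *FOXM1* was lower at -0.86, and 10 did not pass, with a median of -0.053. The part of the G1/S genes in the values of the 38 was not tested.

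**Figure D4:**
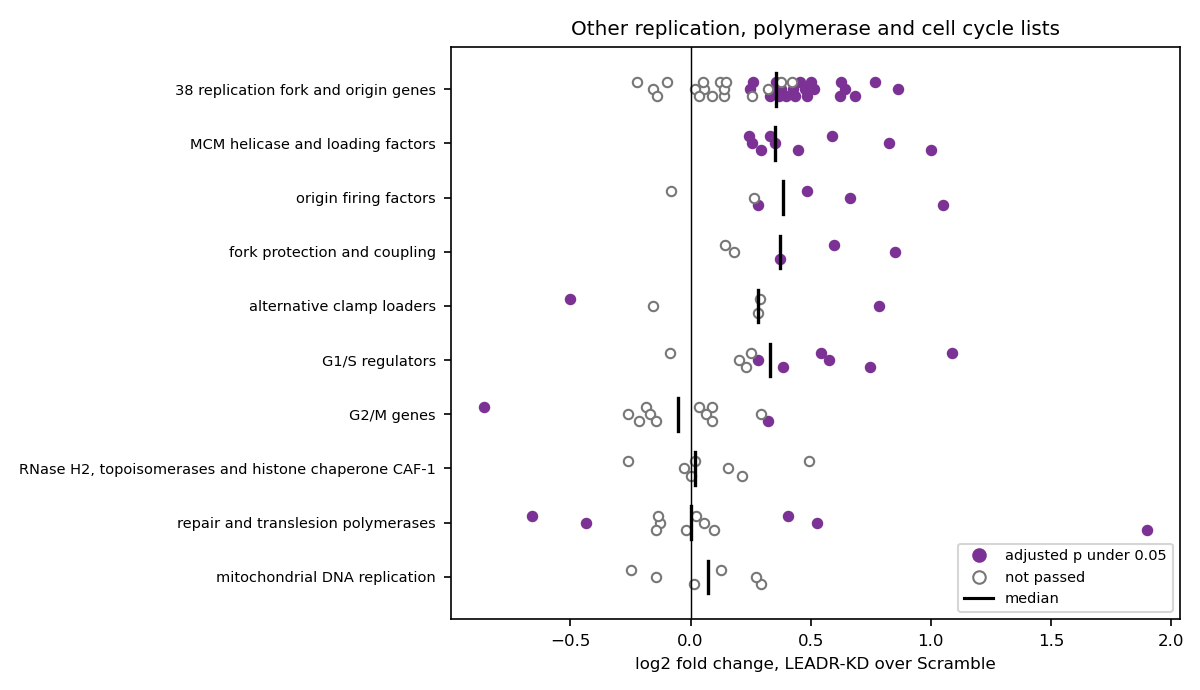
Log2 fold change of LEADR-KD over Scramble (x axis) of single genes in the 38-gene group, at the top, and in other replication, polymerase and cell cycle lists; filled points have an adjusted p under 0.05 and bars mark list medians. The MCM list is filled throughout (median 0.35), and the lists of CAF-1 and RNase H2 genes and of mitochondrial replication hold open points only.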

How the data were processed

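Poly(A) RNA of RT4 cells was measured in 6 libraries, 3 per siRNA, each assigned to its group from the submitters' titles. The authors deposited raw counts per gene. HISAT2 2.0.5, featureCounts 1.5.0-p3 and hg19 stand in the submitters' processing notes, and Salmon in the paper's methods. The authors also deposited FPKM values, which equalled each count divided by gene length and by 1 constant per library. A table of the authors' own comparison by DESeq2 1.20.0 (fold changes, p-values) was not used. Whether counting used strand is not stated in the sources used here.

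Counts were filtered by filterByExpr (minimum count 10), scaled by TMM and tested in edgeR 4.0.16 (R 4.3.3) over 14178 genes with no covariate, and p-values were adjusted by Benjamini-Hochberg. The common biological coefficient of variation was 12.6%. A standard error is the size of the log2 fold change over the square root of F, and 95% intervals are unadjusted. The steps were tested on simulated data. Alternatives were DESeq2 1.42.0, its size factors, library totals, other filters, removal of mitochondrial genes or of libraries, a replicate block, and limma 3.58.1 on log2(FPKM + 1) or log2(FPKM + 0.1).

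The members and lists were chosen with earlier results of these data known. Values per library are given for members that passed the test with a log2 fold change beyond 0.5, and for the largest and smallest change of each complex. Of other lists, up to 3 called genes per direction are named. Neighbouring genes, *POLD4*, *POLE4* and the keratins were named after their values were seen. Promoters are from RefSeq (GRCh38.p14), and 3′ UTRs from GENCODE 44 lifted to GRCh37.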

Additional observations from a re-analysis of the deposited data

How the results depend on the processing

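Of the 21 genes called higher, 13 kept the call in all 17 alternatives, and 6 (*POLD1*, *POLE*, *POLE3*, *RFC1*, *RFC5* and *GINS2*) lost it when at least 1 library was left out. The count of the 38 called higher was 13 with library totals only, all among the 21, and 16 to 18 with any 1 library left out. No alternative called one lower. Their median log2 fold change, 0.36, was 0.31 with library totals only, 0.31 with both libraries numbered 1 left out, and 0.30 to 0.38 with 1 library left out. Over all genes, 1736 were higher (1085 with library totals only, 915 by limma on log2(FPKM + 1) with no filter, 1188 to 1457 with 1 library left out) and 1719 lower (854 by that limma fit, 1142 to 1472 with 1 library left out, the fewest without LEADR-KD 2). The same limma fit called 1 other replication or cell cycle gene lower, against 4, and gave *MIR205HG* -1.16 (adjusted p = 0.0507). The cause of these shifts was not tested.

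Values that changed sign all belonged to genes without a call. With library totals only, *GINS3* was at -0.027 and *GINS4* at -0.011, and with both libraries numbered 1 left out *POLE4* was at -0.018. With any 1 library left out, *POLD4* ranged from -0.051 to 0.32, *GINS3* from -0.060 to 0.080, *GINS4* from -0.013 to 0.094 and *RPA2* from -0.031 to 0.17. Libraries of the same number did not deviate together throughout (correlations over genes 0.23, 0.00058 and 0.27), so the numbers were not taken as pairs. With the replicate number as a block, 24 of the 38 were called higher, 21 of them among those called without it. Over all genes that fit called 2489 higher and 2365 lower, against 1736 and 1719 without the block. LEADR-KD 2 correlated best with Scramble 3 (0.075). *POLD4* and *POLE4*, at 64 counts or fewer per library, are limited by depth.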

Other observations

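The 7 bases complementary to the siRNA seed, present in 2 of the 38 replication genes, were in the 3′ UTR of 26.7% of the 1567 genes lower in LEADR-KD and 11.2% of the 1695 genes higher in LEADR-KD, against 14.2% of all 12091 genes tested with a 3′ UTR. The match of the complementary strand, ATATAGG, was in 10.6% of the lower genes and 10.6% of the higher genes, against 9.33% of all. These shares are descriptions with no test.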
